A study of Mus musculus with 6 samples.

Results

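Genes of Wnt signalling were examined in mouse sciatic nerve at postnatal day 14. A list of 52 ligands, receptors, secreted antagonists and intracellular effectors was matched by symbol to Ensembl gene IDs in a table of 55335 genes. All 52 were found. The 40 members with a mean of at least 0.5 FPKM (fragments normalised to transcript length and to the mapped fragments of the library) over the 6 libraries were compared between genotypes, and the other 12 are described by their values, with adjusted p only from a separate fit that had no filter. Just inside that limit lay Wnt5b and Wnt10a, with means of 0.631 and 0.645 FPKM, and just outside lay Dkk2 and Fzd9, with means of 0.412 and 0.395 FPKM.

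The study sequenced polyadenylated RNA from lysates of the nerve, 3 libraries per genotype. Control mice were RhoAfl/fl, homozygous for a floxed allele of the small GTPase RhoA. The icKO mice were RhoAfl/fl ChATCreERT2+, so that the floxed allele is shared by both groups and the groups differ by an inducible Cre expressed from the choline acetyltransferase gene, which is active in cholinergic neurons among them the motoneurons of the spinal cord. The question, by the title of the series, is how RhoA of these neurons bears on myelination of the nerve that carries their axons. The cell bodies of these neurons lie outside the nerve, and a nerve lysate holds mainly RNA of Schwann cells, of the connective tissue sheaths and of vessels. The labels name neither the induction schedule nor whether control mice were given the inducing drug. Whether each library is from its own animal is not in the labels, so p-values measure the spread between these samples, which may be technical.

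Wnt proteins are secreted lipid-modified signals. In the beta-catenin branch a Wnt binds a Frizzled receptor together with Lrp5 or Lrp6, Dishevelled is recruited, a destruction complex built on Axin and Apc is inhibited, and beta-catenin enters the nucleus to act with TCF/LEF factors. Other Wnts act through Ror and Ryk receptors on cell polarity and movement. R-spondins strengthen the signal by removing the ubiquitin ligases Znrf3 and Rnf43 from the cell surface, and secreted proteins of the Sfrp, Dkk and Wif families weaken it. In peripheral nerve, Wnt signalling has been linked to Schwann cell development and to the start of myelin gene expression.

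Estimated depth was 17200000 to 20700000 fragments per library, so that a transcript of 2000 bases at 0.5 FPKM rests on about 17 to 21 fragments. Rhoa itself was at 36.5, 39.0 and 38.0 FPKM in the controls versus 36.4, 33.6 and 33.2 FPKM in the icKO nerves, which was not a called difference (limma adjusted p = 0.192), and this level in whole nerve is a weak check of a deletion in neurons. The Schwann cell markers of the labelled tissue were abundant in every library, with a summed level of 29294 to 31315 FPKM in control and 30814 to 35190 FPKM in icKO. By Xist and Ddx3y, control replicate 2 came from a female and the other 5 libraries from males. Control replicate 1 and icKO replicate 3 were richest in skeletal muscle transcripts, with 10 muscle markers summing to 1204 and 1378 FPKM there, while the remaining 4 libraries had 9.62 to 320 FPKM. Control replicate 1 also had the lowest fibroblast content of its group, with 10 fibroblast markers summing to 1205 FPKM against 2301 and 1997 FPKM in control replicates 2 and 3 and 1022 to 1068 FPKM in icKO. In these bulk samples, fewer cells of a type and less RNA per cell cannot be told apart.

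The Wnt members did not move as a block. Of the 40 tested, 5 rose in icKO nerves (Wnt11, Fzd1, Lgr4, Axin1 and Tcf7), 7 fell (Porcn, Fzd2, Fzd8, Lrp6, Sfrp4, Sfrp5 and Rspo1) and 28 did not pass (limma on log2(FPKM + 1), Benjamini-Hochberg adjusted p under 0.05 over all genes tested). Wnt11 reached the filter only through its icKO libraries, so it could be tested only because it was high there, and 4 risers are free of this limit. The 12 calls are 30.0% of the members, below the 41.3% of all 14784 tested genes that passed. Over all genes 19.8% rose and 21.5% fell. The median log2 difference was -0.02 for the members and -0.02 for all tested genes, and the median size of the difference, regardless of sign, was 0.30 and 0.31. Control and icKO values were fully separate in 16 of the 40 members, against 56.3% of all tested genes; 8 members had all icKO libraries above (27.5% of all genes) and 8 all below (28.8%). By both counts the list holds no larger share of changed genes than the rest of the transcriptome.

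**Figure D1:**
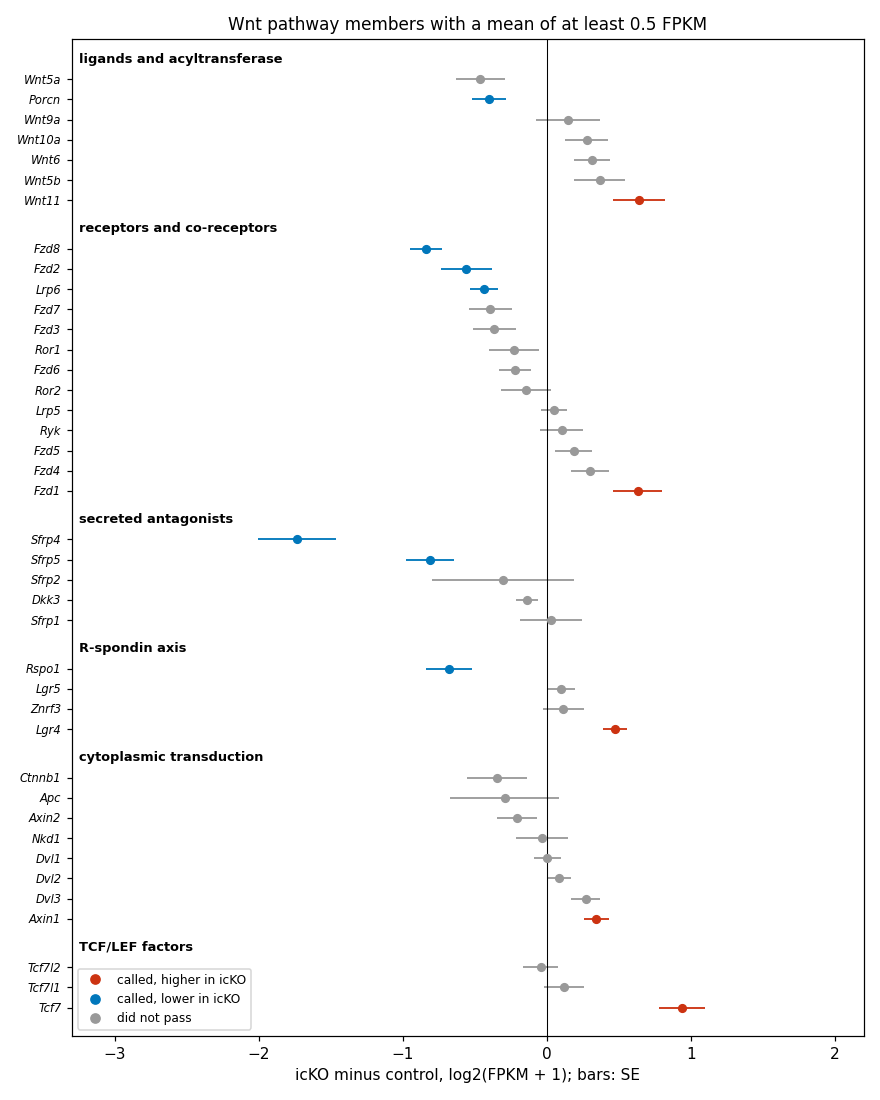
Difference between icKO and control nerves for the 40 tested Wnt members, by class (horizontal axis, log2(FPKM + 1), icKO minus control; points, estimates from 3 libraries per group; bars, SE). Red points rose, blue points fell and grey points did not pass; the lowest is Sfrp4 at -1.74 and the highest Tcf7 at 0.94.

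Of the 12 called members, 6 had a promoter in the RefSeq table (build GRCm38.p6), and windows from 250 bases before to 50 after the annotated start were searched for the TCF/LEF core in 2 spellings, CTTTGAT and CTTTGAA, on both strands. The spellings share all but the last letter, so a site holds only 1 of them. Of the called members only Wnt11 held a match, and its window was picked for display after that match was seen. The windows of Tcf7 and Fzd1 are not shown, though their limma adjusted p was smaller (0.00502 and 0.0243, against 0.0284 for Wnt11). The share of all 32851 promoters with a match was 8.65%, and 2 of the 43 windows of the 33 members with an entry held 1, the other being Wnt5b. The windows of the ligand Wnt11 and the receptor Lgr4, which rose, and of the antagonist Sfrp5 and the agonist Rspo1, which fell, are shown 5′ to 3′ on the strand of the gene, with the match in capitals.
Wnt11, chr7:98834862-98835161, plus strand: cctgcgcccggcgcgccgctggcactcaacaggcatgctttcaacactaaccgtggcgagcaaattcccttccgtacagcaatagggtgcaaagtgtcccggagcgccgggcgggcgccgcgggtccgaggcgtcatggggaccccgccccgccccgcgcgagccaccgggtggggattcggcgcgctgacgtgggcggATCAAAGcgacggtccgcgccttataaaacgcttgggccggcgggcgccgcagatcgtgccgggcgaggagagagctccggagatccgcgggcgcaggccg
Lgr4, chr2:109917397-109917696, plus strand: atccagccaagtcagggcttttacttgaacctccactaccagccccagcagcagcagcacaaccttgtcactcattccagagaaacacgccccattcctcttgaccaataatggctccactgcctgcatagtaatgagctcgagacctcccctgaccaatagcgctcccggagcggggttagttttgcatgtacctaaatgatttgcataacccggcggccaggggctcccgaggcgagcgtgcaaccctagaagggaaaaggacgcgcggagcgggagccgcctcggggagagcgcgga
Sfrp5, chr19:42202203-42202502, minus strand: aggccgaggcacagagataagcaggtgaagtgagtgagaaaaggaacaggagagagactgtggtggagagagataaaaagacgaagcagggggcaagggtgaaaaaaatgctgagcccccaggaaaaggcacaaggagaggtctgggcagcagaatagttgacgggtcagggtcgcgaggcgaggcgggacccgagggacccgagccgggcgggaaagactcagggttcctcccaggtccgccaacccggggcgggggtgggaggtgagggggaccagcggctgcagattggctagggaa
Rspo1, chr4:124986180-124986479, plus strand: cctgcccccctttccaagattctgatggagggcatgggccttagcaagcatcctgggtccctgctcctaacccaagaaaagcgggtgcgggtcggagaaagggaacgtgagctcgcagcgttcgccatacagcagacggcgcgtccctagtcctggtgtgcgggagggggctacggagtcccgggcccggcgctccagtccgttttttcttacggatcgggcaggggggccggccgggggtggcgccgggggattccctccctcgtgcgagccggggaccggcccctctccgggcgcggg
The match in Wnt11 is CTTTGAT read on the opposite strand and begins 51 bases before the annotated start. Wnt11 has a second annotated start whose window held no match, and neither did the windows of Tcf7 and Fzd1. A match describes these letters and is not a bound site.

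Among the ligands, Wnt6 was by far the most abundant in the nerve and Wnt11 was the only ligand called. Wnt6 was at 12.1, 15.1 and 15.0 FPKM in the controls versus 20.3, 16.7 and 16.3 FPKM in the icKO nerves, or 62.3% to 74.4% of the summed FPKM of the 9 listed Wnt genes in a library. All 3 icKO libraries lay above the control libraries, but the log2 difference of 0.32 (SE 0.12) did not pass (limma adjusted p = 0.082). Wnt11, a ligand known mainly for signalling outside the beta-catenin branch, rose from 0.184, 0.345 and 0.377 FPKM to 0.710, 0.829 and 1.66 FPKM. Its groups do not overlap, and icKO replicate 3 was the highest. The log2 difference was 0.64 (SE 0.18, limma adjusted p = 0.0284), at levels near the filter that rest on few fragments. Its mean was 0.302 FPKM in control, below the filter, and 1.07 FPKM in icKO, so the icKO values alone admitted it to the test. The call of Wnt11 was lost without control replicate 1, 2 or 3 and without a filter (limma adjusted p = 0.0797, 0.0654, 0.0629 and 0.0608, and 0.0148 to 0.0797 over its alternatives).

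The paralogues Wnt5a and Wnt5b, which both act on cell polarity and movement, differed in sign without passing. Wnt5a was at 0.522, 1.25 and 1.08 FPKM in the controls versus 0.325, 0.303 and 0.582 FPKM in the icKO nerves, a log2 difference of -0.46 (SE 0.17, limma adjusted p = 0.0676). Control replicate 1 lay below icKO replicate 3, the only overlap. Wnt5a passed without control replicate 1, at -0.63 (limma adjusted p = 0.016), and did not pass without icKO replicate 3, at -0.55 (0.0598). With both of these libraries left out it passed at -0.72 (limma adjusted p = 0.0108). Wnt5a reached the filter only through its control libraries, and Wnt5b and Wnt10a only through their icKO libraries. Wnt5b was at 0.305, 0.559 and 0.373 FPKM in the controls versus 0.550, 1.37 and 0.626 FPKM in the icKO nerves, with icKO replicate 2 apart from the rest (limma adjusted p = 0.144). Wnt9a, at 3.96 ± 1.36 and 4.39 ± 0.855 FPKM (SD, n = 3 each), and Wnt10a, at 0.480 ± 0.123 and 0.810 ± 0.321 FPKM, overlapped between groups. Porcn encodes the acyltransferase that lipid-modifies Wnt proteins before secretion. It fell from 3.72, 4.25 and 4.06 FPKM to 3.42, 2.63 and 2.40 FPKM, with a gap between the groups that was small beside the spread of the icKO libraries. On the log2 scale the difference was -0.40 (SE 0.12, limma adjusted p = 0.0345), and the call held in 1 of 6 fits with a library left out, the one without icKO replicate 1. Without control replicate 1, 2 or 3 or icKO replicate 2 or 3 the adjusted p was 0.0547, 0.109, 0.0994, 0.0908 and 0.0785. Porcn also did not pass without a filter (limma adjusted p = 0.0694) or without control replicate 1 and icKO replicate 3 together (0.0898), and its range over all alternatives was 0.0137 to 0.109.

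**Figure D2:**
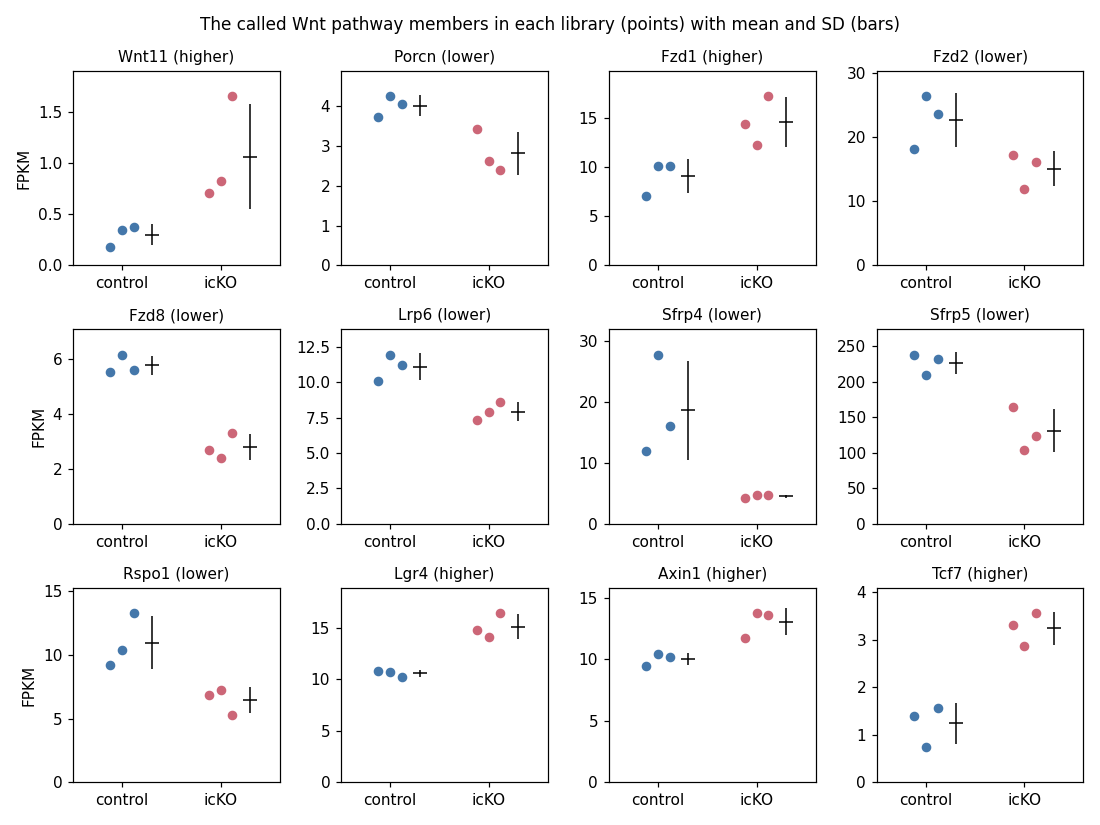
FPKM of the 12 called Wnt members in each library (points; blue, control; red, icKO) with the mean and SD of each group (bars); each vertical axis starts at 0. The groups do not overlap in any of the 12, and Sfrp4 shows a wide control spread for its level, from 12.04 to 27.8 FPKM.

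Among the 13 tested receptors and co-receptors Fzd1 rose, Fzd2, Fzd8 and Lrp6 fell, and 9 did not pass. The calls are 30.8% of this class, against 41.3% of all tested genes. Fzd8, a Frizzled that signals with Lrp5 and Lrp6, fell from 5.55, 6.17 and 5.62 FPKM to 2.71, 2.39 and 3.31 FPKM. Every icKO library lay far below the control libraries. The log2 difference was -0.84 (SE 0.11, limma adjusted p = 0.00206), the smallest p of all members, and the call held in all 17 alternatives. Fzd2 was the most abundant Frizzled of control nerves, at 18.2, 26.4 and 23.6 FPKM against 17.2, 11.99 and 16.1 FPKM in icKO. The groups do not overlap, but control replicate 1 and icKO replicate 1 lay close together. Fzd2 passed at -0.56 (SE 0.18, limma adjusted p = 0.0417).

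Fzd1 rose from 7.09, 10.1 and 10.1 FPKM to 14.3, 12.2 and 17.2 FPKM, with all icKO libraries above the control libraries. On the log2 scale the difference was 0.63 (SE 0.17, limma adjusted p = 0.0243). Fzd1 and Fzd2 are close paralogues with few introns, and fragments shared between near-identical stretches could be split between them. The ratio of Fzd1 to Fzd2, which scaling a library by a constant factor does not alter, was 0.390, 0.383 and 0.427 in control. It was 0.836, 1.02 and 1.07 in icKO libraries. This pair was chosen after its values were seen, and the ratio was not tested. Fzd2 was the most abundant Frizzled in all 3 control libraries, while in icKO it was Fzd2, Fzd3 and Fzd1 in replicates 1, 2 and 3. The summed FPKM of the 10 Frizzled genes, 62.2 to 79.0 in control and 60.8 to 66.8 in icKO, overlapped.

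The calls of Fzd1 and Fzd2 were lost in several fits with a library left out, though the differences kept their sign. They ranged over these fits from 0.48 to 0.74 for Fzd1 and from -0.71 to -0.41 for Fzd2. Without control replicate 1, icKO replicate 1 or icKO replicate 3, Fzd1 had a limma adjusted p of 0.0532, 0.0632 and 0.0569, without a filter 0.0523 and without control replicate 1 and icKO replicate 3 together 0.0571 (0.0124 to 0.0632 over all alternatives). Fzd2 passed in 1 of 6 fits with a library left out, that without control replicate 1. Its adjusted p was 0.124 and 0.117 without control replicate 2 or 3, and 0.0507, 0.102 and 0.0601 without icKO replicate 1, 2 or 3. It also did not pass without a filter or with a muscle covariate (0.0838 and 0.0859), and its range was 0.0239 to 0.124.

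**Figure D3:**
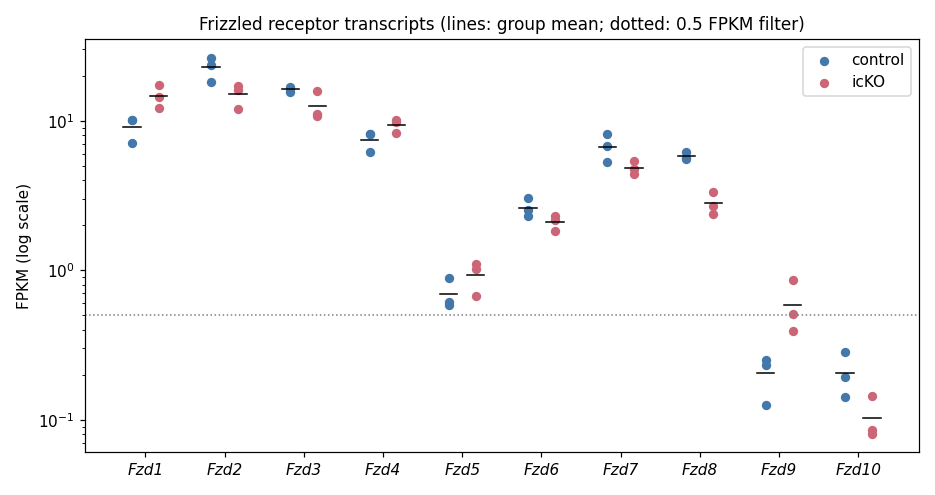
FPKM of the 10 Frizzled genes in each library (vertical axis, log scale; points, libraries; short lines, group means; dotted line, the 0.5 FPKM filter on the mean). Fzd1 lies higher and Fzd2 and Fzd8 lower in icKO, and Fzd9 and Fzd10 fall below the filter.

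The remaining Frizzled genes did not pass. Fzd3, which serves axon guidance and planar polarity, was at 16.8, 15.6 and 16.3 FPKM in the controls versus 11.2, 15.8 and 10.7 FPKM in the icKO nerves. Only icKO replicate 2 reached the control range, and without it Fzd3 passed at -0.53 (limma adjusted p = 0.00686; 0.0872 with all libraries). Fzd4, the receptor of norrin, averaged 7.48 ± 1.2 FPKM in the controls versus 9.39 ± 1.0 FPKM in the icKO nerves (SD, n = 3 each, limma adjusted p = 0.11), and Fzd7 at 6.72 ± 1.40 and 4.83 ± 0.52 FPKM (adjusted p = 0.0732). Fzd7 passed without control replicate 1 (limma adjusted p = 0.025), with quantile scaling (0.0457) and without control replicate 1 and icKO replicate 3 together (0.0211). Fzd6 and Fzd5 were lower in abundance, at 2.62 and 2.11 FPKM and at 0.695 and 0.933 FPKM in the control and icKO groups, and overlapped.

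The co-receptor Lrp6 fell while its paralogue Lrp5 did not pass. Lrp6 was at 10.1, 11.9 and 11.2 FPKM in the controls versus 7.31, 7.86 and 8.62 FPKM in the icKO nerves, without overlap. The log2 difference was -0.43 (SE 0.10, limma adjusted p = 0.0129), and without control replicate 2 or 3 the adjusted p was 0.0521 and 0.0509 (0.00689 to 0.0521 over all alternatives). Lrp5 was at 4.05 ± 0.36 and 4.22 ± 0.30 FPKM (SD, n = 3 each) and its log2 difference was 0.05 (SE 0.09, limma adjusted p = 0.699). Whether the responses of Lrp5 and Lrp6 differ was not tested. The receptors of the polarity branch overlapped between groups, with Ror1 at 1.69 and 1.25 FPKM, Ror2 at 1.79 and 1.48 FPKM and Ryk at 23.1 and 25.1 FPKM in the control and icKO groups. Ror1 passed, as lower, without control replicate 1 (limma adjusted p = 0.0336).

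The largest difference of any tested member was that of a secreted antagonist. None of the 5 tested rose, Sfrp4 and Sfrp5 fell and 3 did not pass (40.0% called, against 41.3% of all tested genes). Secreted Frizzled-related proteins carry a Frizzled-like domain that binds Wnts outside the cell. Sfrp5 was the most abundant transcript of all 52 members, at 238, 209 and 232 FPKM in the controls versus 164, 104 and 124 FPKM in the icKO nerves. Each icKO library lay below each control library. Sfrp5 fell by 0.81 on the log2 scale (SE 0.17, limma adjusted p = 0.00957) and passed in 16 of 17 alternatives, the exception being the fit without control replicate 1 and icKO replicate 3 (adjusted p = 0.0603). It supplied 84.2% to 93.8% of the summed FPKM of Sfrp1, Sfrp2, Sfrp4 and Sfrp5 in a library. The list of 10 perineurial markers holds Sfrp5 and Dact2. The other 8 summed to 191 to 192 FPKM in control and 180 to 201 FPKM in icKO, and none of them was listed at 0. Itgb4, Slc2a1 and Cldn1, which did not pass, made up most of that sum. Of the 8, 1 was higher, Krt19 (mean 10.2 to 12.8 FPKM). The 2 lower were Lypd2 (6.68 to 1.14 FPKM) and Moxd1 (3.87 to 0.578 FPKM), whose levels weigh little in the sum. The part of these markers in the result was not tested.

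Sfrp4 fell the most of all members, from 12.04, 27.8 and 16.0 FPKM to 4.29, 4.72 and 4.72 FPKM. The control libraries spread widely and the icKO libraries hardly at all, with no overlap. On the log2 scale the difference was -1.74 (SE 0.27, limma adjusted p = 0.00347), and the call held in all 17 alternatives. Sfrp4 was highest in control replicate 2 and lowest of its group in control replicate 1, as was the summed level of the fibroblast markers given above. Of those 10 markers 1 rose (Pdgfra) and 4 fell (Col1a1, Col1a2, Lum and Dpt), none was at 0 in any library, and their part in the result was not tested. All 8 adipocyte markers also fell, from sums of 471 to 576 FPKM to 104 to 172 FPKM, and their part was not tested either. Sfrp2 was also lowest in control replicate 1, at 0.961, 5.11 and 4.85 FPKM in the controls versus 1.596, 1.69 and 4.34 FPKM in the icKO nerves, and did not pass (limma adjusted p = 0.648). Without control replicate 1 and icKO replicate 3, where these are the lowest and the highest of their groups, Sfrp2 passed at -1.18 (adjusted p = 0.0043). Sfrp1 was at 4.81 ± 1.64 and 4.80 ± 0.71 FPKM (SD, n = 3 each). Dkk3, a member of the Dickkopf family with an unsettled role in Wnt signalling, was at 44.6, 44.5 and 42.5 FPKM in the controls versus 37.4, 42.0 and 40.1 FPKM in the icKO nerves. Its groups do not overlap, but the log2 difference of -0.14 (SE 0.08) did not pass (limma adjusted p = 0.194).

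In the R-spondin axis the ligand fell and its receptor rose. Rspo1 was the only R-spondin above the filter. It fell from 9.20, 10.3 and 13.2 FPKM to 6.83, 7.20 and 5.25 FPKM, with no overlap. The log2 difference was -0.68 (SE 0.16, limma adjusted p = 0.0153). Lgr4, the R-spondin receptor with the higher level in the nerve, rose from 10.8, 10.7 and 10.2 FPKM to 14.8, 14.1 and 16.4 FPKM. The control libraries were nearly equal and all icKO libraries lay above them, a log2 difference of 0.47 (SE 0.08, limma adjusted p = 0.00562). The calls of Rspo1 and Lgr4 held in all 17 alternatives. Lgr5, a second R-spondin receptor and a stem cell marker in other tissues, was at 0.899 ± 0.115 and 1.04 ± 0.11 FPKM. Znrf3, the ligase that removes Frizzled from the membrane, was at 2.21 ± 0.36 and 2.50 ± 0.54 FPKM (SD, n = 3 each). Neither Lgr5 nor Znrf3 passed (limma adjusted p = 0.418 and 0.552).

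Of the 8 cytoplasmic components tested, Axin1 passed and 7 did not (12.5% called, against 41.3% of all tested genes). Axin1, the scaffold of the destruction complex, rose from 9.50, 10.4 and 10.2 FPKM to 11.8, 13.8 and 13.6 FPKM. The groups do not overlap, and the log2 difference was 0.34 (SE 0.09, limma adjusted p = 0.0215). The call was lost without control replicate 1, 2 or 3 or icKO replicate 2 (limma adjusted p = 0.0664, 0.0546, 0.0654 and 0.0548). It was also lost without control replicate 1 and icKO replicate 3 together (limma adjusted p = 0.103, and 0.0162 to 0.103 over all alternatives). The Dishevelled genes Dvl1, Dvl2 and Dvl3, whose products relay the signal from Frizzled, were at 18.0, 3.87 and 8.61 FPKM in the controls versus 18.1, 4.15 and 10.6 FPKM in the icKO nerves. In Dvl3 all icKO libraries, at 9.60 to 11.8 FPKM, lay above the control libraries, at 7.94 to 8.97 FPKM, with an adjusted p of 0.0675 (limma).

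Ctnnb1, the beta-catenin gene, was at 62.2, 105 and 107 FPKM in the controls versus 71.7, 65.3 and 72.0 FPKM in the icKO nerves. The icKO libraries were tight and control replicate 1 lay below them, so that the groups overlap, and the log2 difference of -0.34 (SE 0.21) did not pass (limma adjusted p = 0.224). Without control replicate 1, Ctnnb1 passed at -0.60 (adjusted p = 0.00752), and without that library and icKO replicate 3 at -0.62 (0.0113). Beta-catenin is also a protein of cell junctions, and its activity is set largely by protein stability, which transcript levels do not show. Apc was variable in both groups, at 4.198, 2.30 and 5.55 FPKM in the controls versus 3.99, 1.32 and 4.29 FPKM in the icKO nerves.

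The feedback genes Axin2 and Nkd1, which beta-catenin signalling induces in many tissues, did not pass. Axin2 was at 1.85, 2.30 and 2.30 FPKM in the controls versus 1.88, 1.27 and 2.09 FPKM in the icKO nerves, a log2 difference of -0.21 (SE 0.14, limma adjusted p = 0.267). Nkd1 was at 16.5, 16.8 and 16.7 FPKM in the controls versus 14.3, 13.4 and 22.3 FPKM in the icKO nerves. The control libraries were almost equal, and icKO replicate 3, a muscle-rich library, lay above all others while icKO replicates 1 and 2 lay below. Control replicate 1, also muscle-rich, had the lowest control value, 16.5 FPKM. Without icKO replicate 3, Nkd1 passed at -0.25 (limma adjusted p = 0.0407; 0.891 with all libraries). With the level of the muscle markers as a covariate the difference was 0.21 and did not pass. The paralogue Nkd2, named after its values were seen, rose from 2.34 ± 0.24 to 5.85 ± 1.37 FPKM (SD, n = 3 each). Its log2 difference was 1.02 (SE 0.15, limma adjusted p = 0.00299), and the call held in all 17 alternatives.

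Of the TCF/LEF factors, which bind the DNA of Wnt target genes, Tcf7 rose. It was at 1.40, 0.749 and 1.57 FPKM in the controls versus 3.30, 2.86 and 3.56 FPKM in the icKO nerves, with no overlap. On the log2 scale the difference was 0.94 (SE 0.16, limma adjusted p = 0.00502), the largest rise of all members, and the call held in all 17 alternatives. Tcf7 made up 7.68% to 15.3% of the summed FPKM of the 4 factors in control libraries and 24.0% to 26.3% in icKO libraries. Tcf7l1, often a repressor and the most abundant of the 4, was at 6.85 ± 0.48 and 7.61 ± 1.52 FPKM. Tcf7l2, a factor that oligodendrocytes and Schwann cells use during differentiation, was at 1.99 ± 0.42 and 1.88 ± 0.17 FPKM (SD, n = 3 each). Tcf7l1 and Tcf7l2 did not pass (limma adjusted p = 0.516 and 0.799). Lef1, below the filter, was at 0.477, 0.509 and 0.365 FPKM in the controls versus 0.314, 0.220 and 0.185 FPKM in the icKO nerves, without overlap.

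The 12 members below the filter were low in every library, with a highest value of 1.155 FPKM, that of Wnt2 in control replicate 2. Wnt2, a ligand of mesenchymal cells, was at 0.564, 1.155 and 0.366 FPKM in the controls versus 0.049, 0.047 and 0.159 FPKM in the icKO nerves. The antagonist Dkk2, which blocks Lrp5 and Lrp6, was at 0.304, 0.907 and 0.825 FPKM in the controls versus 0.076, 0.112 and 0.248 FPKM in the icKO nerves. In both genes every icKO library lay below every control library. Fzd9 ran the other way, at 0.126, 0.252 and 0.233 FPKM in the controls versus 0.389, 0.512 and 0.856 FPKM in the icKO nerves. In a fit without a filter, in which 20.0% of 30465 genes passed, Wnt2, Dkk2, Fzd9 and Lef1 did not pass (limma adjusted p = 0.0533, 0.0661, 0.0716 and 0.0652), while Wnt4 and Wnt16 passed as lower (0.0493 and 0.0355) at levels of at most 0.131 FPKM. The other 6, Fzd10, Wif1, Notum, Rspo2, Rspo3 and Rnf43, stayed at or below 0.567 FPKM, and their groups overlap. Rspo2 was listed at 0 in all 3 icKO libraries and in control replicate 2, and Wif1, Wnt4, Wnt16 and Rnf43 were each listed at 0 in at least 1 library.

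**Figure D4:**
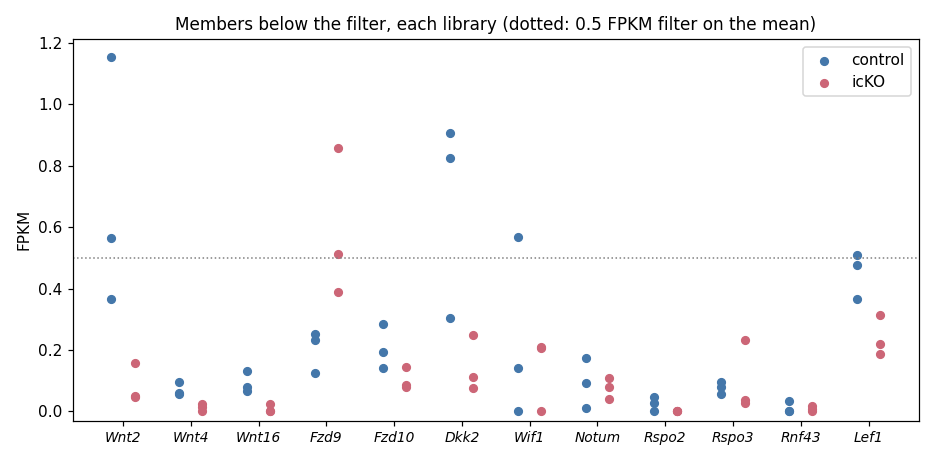
FPKM of the 12 members below the filter in each library (vertical axis, linear; blue, control; red, icKO; dotted line, 0.5 FPKM, the filter on the mean). Wnt2, Dkk2 and Lef1 lie lower and Fzd9 higher in icKO libraries, all at 1.155 FPKM or less and without a test in the filtered fit.

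Other genes of the pathway were counted from 5 lists with 97 matched genes, 78 of which passed the filter. Of these 14 rose and 16 fell (38.5%, against 41.3% of all tested genes), with a median log2 difference of -0.05. Genes named from these lists are those with the largest differences in each direction among the genes that passed the test, unless stated otherwise; some genes that did not pass had larger differences. Among 12 tested ligand, secretion and receptor genes, 3 fell and 1 rose (33.3% called). Ndp, the gene of norrin, which is no Wnt but binds Fzd4, fell from 11.8, 11.4 and 13.8 FPKM to 4.33, 3.30 and 4.45 FPKM (log2 difference -1.41, SE 0.12, limma adjusted p = 0.000755). Tspan12, a tetraspanin that assists norrin at Fzd4, fell from 3.99, 4.06 and 3.71 FPKM to 1.92, 1.70 and 2.12 FPKM. The groups of Ndp and Tspan12 lay far apart, while the receptor genes Fzd4 and Lrp5 did not pass. The sums of 2 vascular marker lists were also lower in icKO, though most of their 16 markers did not pass. Of all tested genes 41.3% passed. The 8 endothelial markers summed to 106 to 109 FPKM in control and 85.3 to 97.6 FPKM in icKO, with 1 higher (Pecam1) and 3 lower. The 8 mural markers summed to 234 to 335 FPKM in control and 168 to 205 FPKM in icKO, with 0 higher and 3 lower. The largest drop in mean FPKM was that of Cldn5 (43.4 to 31.5) in the endothelial list and of Acta2 (86.5 to 33.5) in the mural list. None of the 16 was listed at 0 in any library, and their part in these results was not tested. The third gene that fell, named after its values were seen, was Wls, the carrier that brings Wnts to the cell surface, at 3.62 ± 0.74 and 1.94 ± 0.20 FPKM (SD, n = 3 each). Reck, a receptor partner for certain Wnts, rose from 13.0 to 18.2 FPKM but lost its call without control replicate 1 or 3, without icKO replicate 2 or 3 (limma adjusted p = 0.0599, 0.0649, 0.0661 and 0.0515), with the muscle covariate (0.0741) or without control replicate 1 and icKO replicate 3 (0.0919).

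Of 7 other antagonists tested, 2 fell and 1 rose (42.9% called, against 41.3% of all tested genes). Frzb, a further secreted Frizzled-related protein, fell from 68.3, 69.0 and 71.2 FPKM to 11.7, 23.7 and 8.33 FPKM, with nearly equal control libraries and a spread of icKO libraries that stayed far below them. Its log2 difference of -2.30 (SE 0.33, limma adjusted p = 0.00263) was larger than that of any member. Frzb, Sfrp4 and Sfrp5 thus fell, and Sfrp1 and Sfrp2 did not pass. Trabd2b, a protease that cleaves Wnt proteins, fell from 2.02 ± 0.56 to 0.728 ± 0.194 FPKM, and Kremen1, a receptor for Dkk proteins, rose from 11.4 ± 0.79 to 18.3 ± 1.66 FPKM (SD, n = 3 each).

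The list of other cytoplasmic and nuclear genes held 9 rises and 4 falls among 34 tested (38.2%, against 41.3% of all tested genes). Frat2, whose product binds the kinase Gsk3 and keeps it from Axin, rose from 1.14, 0.969 and 1.06 FPKM to 4.69, 6.15 and 6.05 FPKM (log2 difference 1.68, SE 0.11, limma adjusted p = 0.000431). Its paralogue Frat1, named after its values were seen, rose from 0.380 ± 0.134 to 1.58 ± 0.19 FPKM. Tle3, a corepressor that binds TCF/LEF factors, rose from 5.13, 5.17 and 4.90 FPKM to 13.3, 12.7 and 14.5 FPKM. The libraries of each group were close together and the groups far apart. Among its paralogues, Tle1 rose (3.57 to 5.49 FPKM) and Tle2 fell (5.66 to 3.12 FPKM), both named after their values were seen. Apc2, a relative of Apc found mainly in neurons, fell from 3.13, 3.14 and 2.99 FPKM to 1.38, 0.705 and 1.10 FPKM, and Dact3, which binds Dishevelled, from 9.16 ± 0.73 to 4.21 ± 0.56 FPKM (SD, n = 3 each).

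Planar polarity genes and beta-catenin targets went in both directions. Of 14 tested polarity genes 2 rose and 4 fell (42.9%, against 41.3% of all tested genes). Prickle2, a core polarity protein, fell from 10.4, 11.2 and 9.99 FPKM to 4.79, 4.61 and 4.74 FPKM, with all 3 icKO libraries nearly equal. Fuz, a polarity effector needed for cilia, fell from 3.68 ± 0.14 to 1.89 ± 0.30 FPKM. Celsr2, a polarity cadherin, and Daam2, a formin that binds Dishevelled, rose to 12.9 FPKM each, from means of 8.93 and 8.06 FPKM. Celsr2 did not pass without control replicate 3 (limma adjusted p = 0.052). Daam2 passed in 1 of 6 fits with a library left out, that without icKO replicate 3, and in the others had an adjusted p of 0.0612 to 0.0858 (limma). Of 11 other beta-catenin targets tested, 1 rose and 3 fell (36.4% called). Ascl2, a transcription factor, rose from 0.375, 0.417 and 0.298 FPKM to 3.86, 2.79 and 1.42 FPKM, with no overlap and a wide icKO spread. Fgf18, a growth factor, fell from 0.827, 1.73 and 1.83 FPKM to 0.291, 0.340 and 0.182 FPKM, and the receptor gene Tnfrsf19 from 1.45 ± 0.14 to 0.468 ± 0.072 FPKM (SD, n = 3 each). Ascl2 and Frat1 reached the filter only through icKO, and Fgf18 and Tnfrsf19 only through control, each with a mean below 0.5 FPKM in the other group; without a filter they passed as well (limma adjusted p = 0.0171, 0.00581, 0.0216 and 0.0061).

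**Figure D5:**
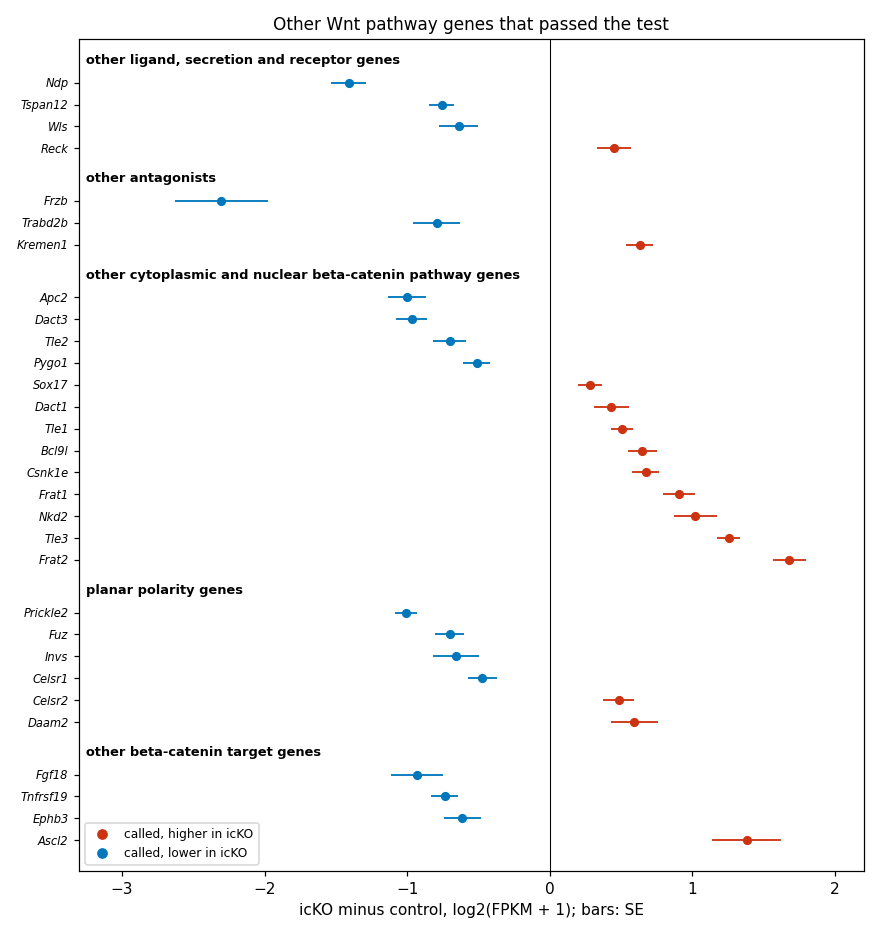
Difference between icKO and control nerves for the 30 called genes of the 5 other Wnt pathway lists (horizontal axis, log2(FPKM + 1), icKO minus control; points, estimates from 3 libraries per group; bars, SE). The 14 red points rose and the 16 blue points fell, from Frzb at -2.30 to Frat2 at 1.68.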

How the data were processed

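The authors deposited FPKM values for 55335 genes in 6 libraries. The tools DESeq2 1.16.1, StringTie 1.3.1c, STAR and FastQC 0.11.2 and the build GRCm39 are listed, with no stated role, per the submitters' processing notes. The annotation release, the strand setting and the handling of multiply mapped reads were not given in the sources used here. Symbols came from GENCODE M21, matched by gene ID for 55154 genes; that annotation is of another build (GRCm38), so no gene coordinates are given, and promoters are RefSeq windows of GRCm38.p6. Of 98 other pathway genes 97 matched (Tle5 did not). FPKM is relative to all other transcripts of a library, and whole fragments were not recovered, so depth was estimated from the lowest FPKM steps. Genes averaging 0.5 FPKM or more were tested with limma 3.58.1 (R 4.3.3) on log2(FPKM + 1), a pseudocount that understates changes of low genes, with a variance trend, no covariate and Benjamini-Hochberg adjustment over 14784 genes. The fit was tested on simulated data. Values of every library are given for called members and a few uncalled ones per class, and other lists by their largest changes. Members, lists and rule were chosen with earlier results of these data known. Alternatives were other pseudocounts, filters and scalings, a replicate block, a muscle covariate, no trend and leaving out libraries. The replicate numbers are not known to pair libraries.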

Additional observations from a re-analysis of the deposited data

How the results depend on the processing

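Of the 12 called members, 5 kept their call in all alternatives (Fzd8, Sfrp4, Rspo1, Lgr4 and Tcf7), 7 lost it in at least 1, and none changed direction. With single libraries left out, 2 to 4 members were higher and 4 to 10 lower. The counts over all genes were then 1958 to 2793 and 2097 to 3198, and those of the other pathway genes 9 to 13 and 15 to 23. Without a filter 3 members were higher, and without control replicate 1 and icKO replicate 3 also 3, while 25 other pathway genes were lower. The cause was not tested. With the replicate block 5 members were higher and 5 lower, and 2442 and 2573 of all genes; same-numbered libraries had correlations of -0.1, 0.038 and -0.061 in their deviations from the group means, so the numbers give no pairing. Porcn and Fzd2 lost their calls under the block (limma adjusted p = 0.0748 and 0.0929). Differences that changed sign all belonged to the 9 uncalled members Wnt9a, Ror2, Ryk, Sfrp1, Dvl1, Apc, Nkd1, Tcf7l1 and Tcf7l2. With single libraries left out they ranged, in that order, from -0.078 to 0.33, -0.33 to 0.014, -0.057 to 0.22, -0.19 to 0.23, -0.064 to 0.070, -0.57 to 0.090, -0.25 to 0.096, -0.0054 to 0.25 and -0.15 to 0.054 on the log2 scale. Without control replicate 1 and icKO replicate 3, Wnt9a, Sfrp1 and Tcf7l2 were at -0.18, -0.26 and 0.045, with the muscle covariate Sfrp1, Nkd1 and Tcf7l2 at -0.0097, 0.21 and 0.0098, and with quantile scaling Tcf7l2 at 0.021. Depth limits the members near or below 0.5 FPKM most.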
